A study of Saccharomyces cerevisiae with 16 samples.

Results

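The mitochondrial ribosome of budding yeast makes the few proteins encoded in mitochondrial DNA, nearly all of them subunits of the respiratory chain and the ATP synthase. Its proteins are encoded in the nucleus, translated in the cytosol and imported, so a working respiratory chain needs products of both genomes. The large subunit carries the peptidyl transferase centre and the small subunit decodes the messenger RNA. Both hold proteins descended from the bacterial ribosome and proteins found only in mitochondria.

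The genes described here are those whose standard name begins with MRPL (large subunit), or with MRPS or RSM (small subunit), followed by a number. There are 54 such genes, of which 52 have an entry in the deposited table of 6074 genes. The large subunit accounts for 34 of the 54 and the small subunit for 20. Testing required 3 or more measured arrays out of 4 in each mutant, which left 5147 genes and 48 members, 29 of the large and 19 of the small subunit. MRPL11 and MRPL15 have no entry and were not analysed here, and MRPL24, MRPL25, MRPL40 and MRPS5 had too few values to be tested. The family was picked with results of these arrays known, so its counts and medians are descriptions set beside those of all tested genes, and no test was made of the family as a whole.

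RNA of 4 mutants was compared with RNA of wild-type Saccharomyces cerevisiae grown beside them, on 2-colour arrays of all annotated open reading frames. The mutants are set1, which lacks the histone H3 lysine 4 methyltransferase; H3K4A, in which that lysine of histone H3 is replaced by alanine; set1htz1, which also lacks the histone variant H2A.Z encoded by HTZ1; and set1htz1sir2, which in addition lacks the silencing deacetylase encoded by SIR2. Cells were in logarithmic growth in rich glucose medium with added adenine (YPAD) at the same temperature, and all groups share that wild type as the other channel. Each group had 4 arrays, described by the depositors as independent biological replicates, and the dyes were exchanged between them, the mutant being Cy5 on arrays 1 and 3 but Cy3 on 2 and 4. Values are log2 ratios of mutant over wild type, so -1 is a level 2-fold below wild type. The ratios were scaled to total signal, so they are relative to the average transcript, and in a whole culture fewer cells expressing a gene and less RNA per cell cannot be told apart.

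The arrays carried between 5385 and 5802 entries with a value. The deleted genes gave the values that the labels call for. SET1 averaged -2.67 ± 0.42 in set1, -2.34 ± 0.45 in set1htz1 and -2.31 ± 0.22 in set1htz1sir2, against -0.14 ± 0.15 in H3K4A (SD, n = 4). HTZ1 averaged -2.94 ± 0.26 in set1htz1 and had no value in set1htz1sir2, and SIR2 averaged -2.44 ± 0.28 in set1htz1sir2 (SD, n = 4). Arrays of opposite dye correlated over all genes at -0.268 to 0.09 in set1 and at 0.649 to 0.817 in set1htz1. In H3K4A array 1 correlated at 0.484 with array 4 and array 2 at 0.615 with array 3, while the other pairs lay between -0.276 and 0.363. The depositors' description says that total RNA was used for H3K4A and purified mRNA for the other mutants, while the sample labels give polyadenylated RNA for all, so input RNA and genotype cannot be told apart for H3K4A.

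The family was lower than wild type in set1, lower still in set1htz1, and near wild type as a whole in H3K4A and in set1htz1sir2. The median over the members with a value, taken on each array in the order 1 to 4, was -0.34, -0.12, -0.22 and -0.40 in set1. It was -0.46, -0.57, -0.75 and -0.55 in set1htz1. It was -0.05, -0.10, -0.10 and -0.065 in set1htz1sir2 and -0.232, 0.129, 0.091 and -0.064 in H3K4A. All 4 set1htz1 arrays lay below all arrays of the other mutants, the set1 arrays lay below the set1htz1sir2 arrays, and the H3K4A arrays fell on both sides of 0. As group means these are -0.27 ± 0.12 in set1, -0.58 ± 0.12 in set1htz1, -0.08 ± 0.03 in set1htz1sir2 and -0.02 ± 0.16 in H3K4A (SD, n = 4).

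**Figure D1:**
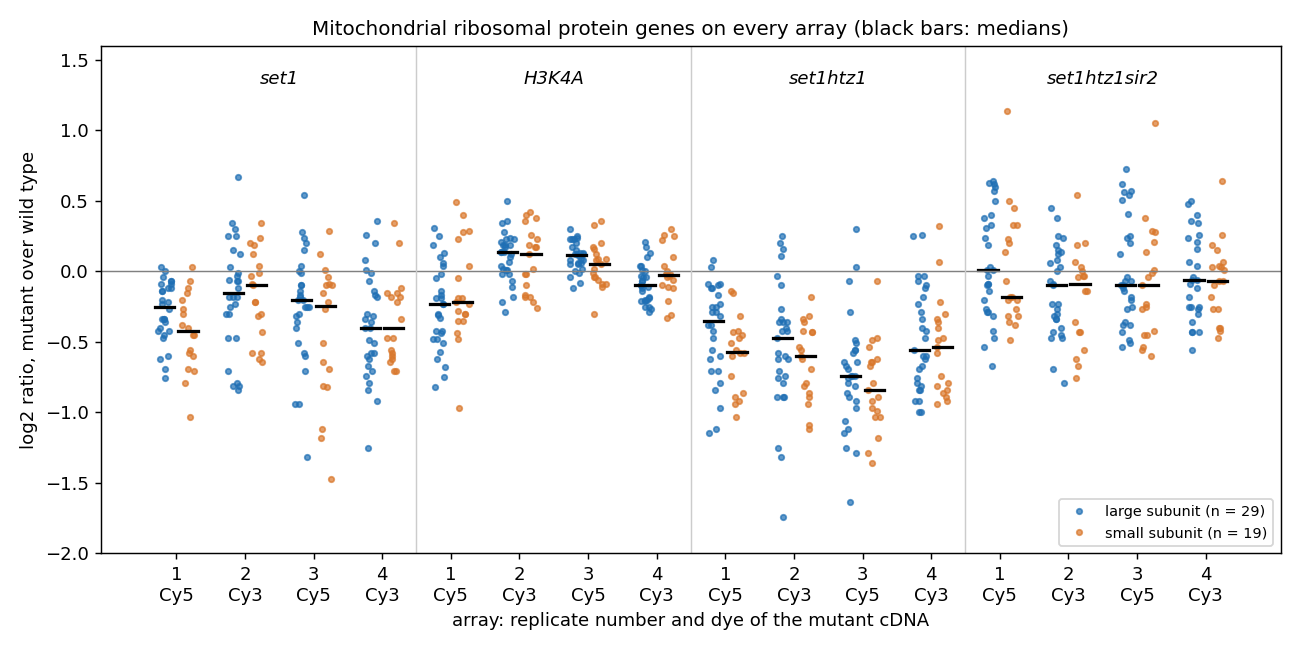
The log2 ratio of mutant over wild type for each tested mitochondrial ribosomal protein gene on each of the 16 arrays, by group, with large-subunit and small-subunit genes in separate columns of points and a black bar at the median of each. Over both subunits the medians of the set1htz1 arrays lie between -0.46 and -0.75, below those of every other group.

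**Figure D2:**
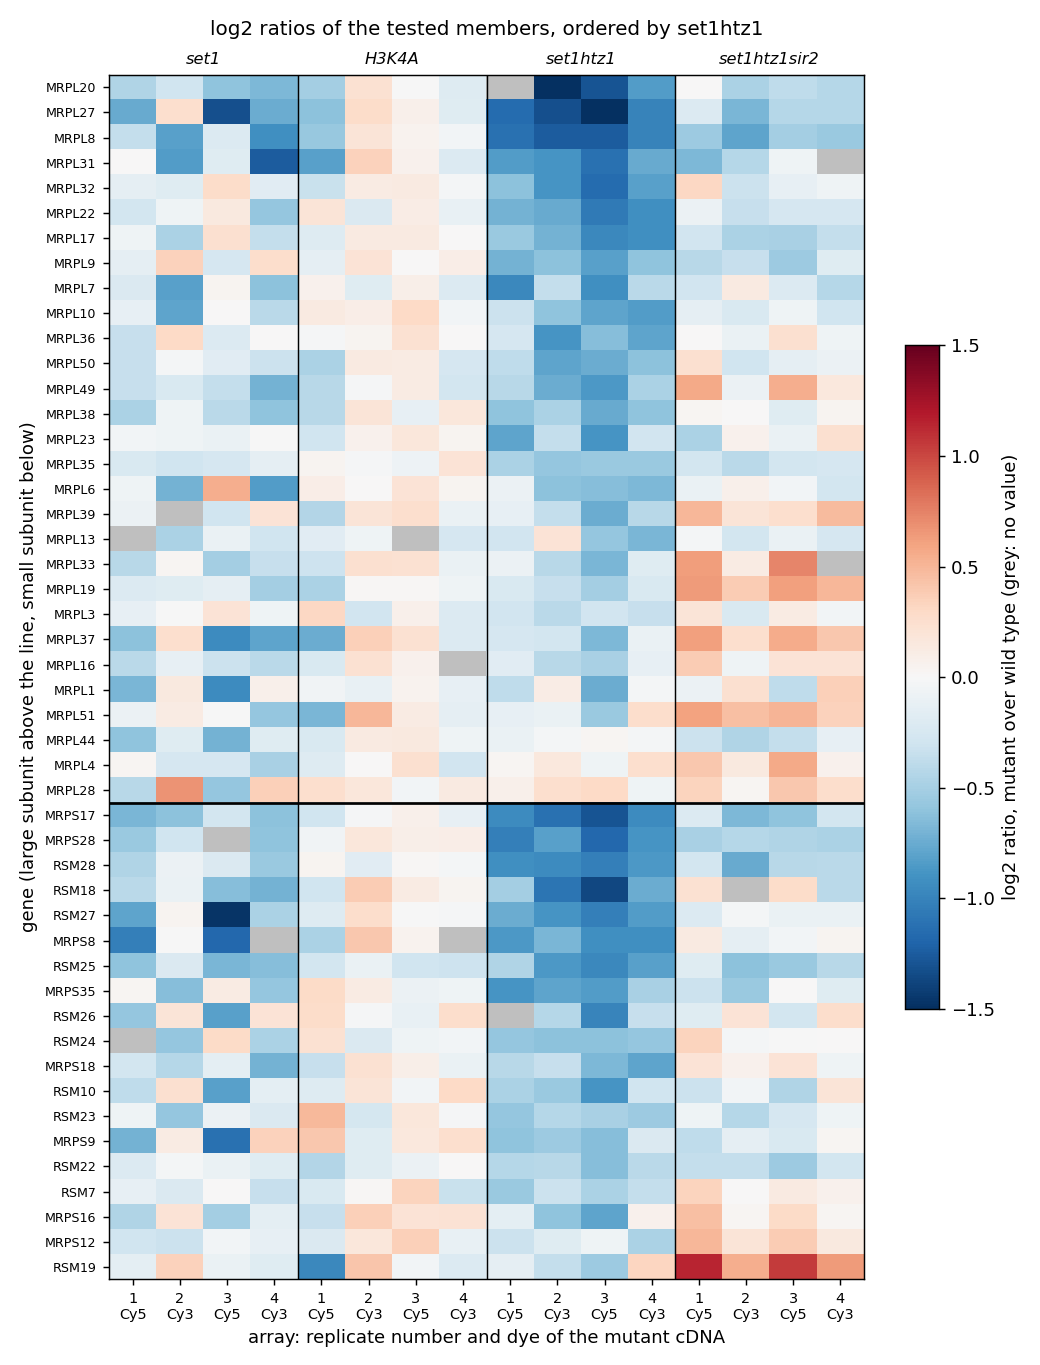
The same log2 ratios with 1 line of cells per tested member and 1 column per array, the large subunit above the small subunit, and missing values left grey. The set1htz1 columns are mostly blue (below wild type) in both subunits, whereas the set1htz1sir2 columns hold both colours.

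In set1, 20 of the 48 members fell and none rose, by limma with Benjamini-Hochberg adjusted p under 0.05 over all 5147 genes. Over all tested genes 18.8% were called, 9.79% lower and 9.05% higher. The fitted member changes ranged from -0.68 to 0.05 with a median of -0.272, against -0.02 over all genes, and 46 were negative. On every measured array 21 members (43.8%) were below 0, compared with 13.3% of all genes. The fall was shared by the subunits, with 12 of 29 large-subunit genes lower (median -0.27) and 8 of 19 small-subunit genes lower (median -0.275).

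The largest falls in set1 were in MRPS8, RSM27, MRPL27 and MRPL8. MRPS8 (YMR158W), the counterpart of bacterial protein S8 in the small subunit, gave -1.03, -0.01 and -1.18 on arrays 1 to 3 and no value on array 4. Its fitted change was -0.68 ± 0.16 (SE, limma adjusted p = 0.0072). The array in Cy3 was at wild type and those in Cy5 were low. The SD over these set1 arrays was 0.64 (n = 3), while the SE draws on the spread in all groups.

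RSM27 (YGR215W), a small-subunit protein specific to mitochondria, gave -0.79, 0.04, -1.47 and -0.47, for a change of -0.67 ± 0.13 (SE, limma adjusted p = 0.0018). MRPL27 (YBR282W), a mitochondria-specific protein of the large subunit, gave -0.76, 0.25, -1.32 and -0.74, for a change of -0.64 ± 0.17 (SE, limma adjusted p = 0.013). In both genes array 2 lay above 0 and the other arrays below it. The SD over the set1 arrays was 0.63 for RSM27 and 0.65 for MRPL27 (n = 4), while the SE draws on the spread in all groups.

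MRPL8 (YJL063C), the counterpart of bacterial L17 in the large subunit, gave -0.36, -0.81, -0.20 and -0.92, for a change of -0.57 ± 0.12 (SE, limma adjusted p = 0.0031). It was low on all arrays and lower with the mutant in Cy3, the opposite of the other 3 genes. The count of members that fell dropped from 20 to 11 without set1 array 1 and to 8 without set1 array 4.

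In H3K4A no member was called in either direction by limma, where 4.2% of all genes were called, 3.59% higher and 0.602% lower. At an unadjusted limma p under 0.05 there were 2 members, both lower, beside 453 higher and 316 lower of the 4756 tested genes with a length. The fitted changes ranged from -0.25 to 0.16 with a median of -0.024, against -0.022 over all genes. The 95% intervals of all 48 members lay between -0.56 and 0.47, inside a 1.5-fold change in either direction (0.58 on the log2 scale). These intervals use 1 spread per gene shared by all groups. The SD over the H3K4A arrays reached 0.58 for RSM19 and 0.5 for MRPL37 (n = 4). The bound therefore does not rest on the H3K4A arrays alone.

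The lowest fitted member was RSM25 (YIL093C), a mitochondria-specific small-subunit protein, at -0.28, -0.10, -0.30 and -0.31, a change of -0.25 ± 0.10 (SE, limma adjusted p = 0.23). Next was RSM19 (YNR037C), the counterpart of bacterial S19, at -0.97, 0.42, -0.04 and -0.21, a change of -0.20 ± 0.17 (SE, limma adjusted p = 0.63) that turns to 0.05 without array 1. RSM25 was below 0 on all arrays, whereas the low mean of RSM19 came from array 1.

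The highest was MRPS9 (YBR146W), the counterpart of bacterial S9, at 0.40, -0.18, 0.16 and 0.25, a change of 0.16 ± 0.15 (SE, limma adjusted p = 0.68). MRPL28 (YDR462W), a mitochondria-specific large-subunit protein, followed at 0.25, 0.17, -0.04 and 0.13, a change of 0.13 ± 0.14 (SE, limma adjusted p = 0.73). Neither kept to 1 side of 0. Arrays 1 and 4 had 72.9% and 71.7% of the members below 0, and arrays 2 and 3 had 31.2% and 25.5%. Leaving out 1 array at a time moved the member median between -0.058 and 0.049.

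The enzyme deletion and the residue substitution were compared directly, array group against array group. In H3K4A 2 members were higher than in set1 and none was lower, where 7.5% of all genes were called, 4.1% higher and 3.4% lower. With no overlap between the arrays, 4.17% of members were higher, against 5.44% of all genes. The median difference over the members was 0.31, compared with 0.007 over all genes, and 44 of the 48 fitted differences were positive or 0. The members called were RSM27 and MRPS28, both of the small subunit.

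RSM27 gave -0.19, 0.26, -0.01 and -0.02 in H3K4A, against the set1 values above, a difference of 0.68 ± 0.19 (SE, limma adjusted p = 0.033). MRPS28 (YDR337W), the counterpart of bacterial S15, gave -0.05, 0.17, 0.09 and 0.10 in H3K4A and -0.56, -0.30 and -0.60 on set1 arrays 1, 2 and 4, a difference of 0.59 ± 0.12 (SE, limma adjusted p = 0.0072). The arrays of MRPS28 did not overlap, while for RSM27 set1 array 2 lay among the H3K4A values. The number called ranged from 1 to 8 when single arrays were left out and was 0 when only the arrays of these groups were fitted. The mRNA and total RNA inputs named in the depositors' description lie across this comparison, and their part in it was not tested.

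In set1htz1, 41 of the 48 members fell and none rose (limma adjusted p under 0.05), where 47.5% of all genes were called, 26.3% lower and 21.2% higher. The member changes had a median of -0.591, with quartiles of -0.8 and -0.34 and a range of -1.29 to 0.14, against a median of -0.038 over all genes. On every measured array 40 members (83.3%) were below 0, compared with 33.6% of all genes. Of the large subunit 23 of 29 genes fell (median -0.582), and of the small subunit 18 of 19 fell (median -0.6). A fall of at least 2-fold was reached by 4 members.

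MRPL20 (YKR085C), a mitochondria-specific large-subunit protein, gave -1.74, -1.29 and -0.84 on set1htz1 arrays 2 to 4 and no value on array 1. Its change of -1.29 ± 0.16 is 2.45-fold below wild type (SE, limma adjusted p = 4.3e-06). MRPL27 gave -1.15, -1.32, -1.64 and -1.0, 2.42-fold below wild type at -1.28 ± 0.17 (SE, limma adjusted p = 7.8e-06). Every measured array of both genes was low, and array 2, where MRPL27 was above 0 in set1, was among them.

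MRPL8 gave -1.12, -1.25, -1.25 and -1.0, 2.23-fold below wild type at -1.16 ± 0.12 (SE, limma adjusted p = 6.5e-07). MRPS17 (YMR188C), the counterpart of bacterial S17, gave -0.94, -1.12, -1.29 and -0.94, 2.10-fold below wild type at -1.07 ± 0.10 (SE, limma adjusted p = 1.9e-07). The spread between arrays of these genes was small beside the fall, and neither dye stood apart.

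The 7 members not called in set1htz1 were MRPL1 at -0.26, MRPL37 at -0.32, RSM19 at -0.18, MRPL51 at -0.13, MRPL44 at -0.03, MRPL4 at 0.09 and MRPL28 at 0.14. Of these 6 belong to the large subunit. Among the members without enough values to be tested, MRPL24 gave -0.74, -1.0 and -0.69 on set1htz1 arrays 2 to 4, a mean of -0.81 ± 0.17 (SD, n = 3). MRPL25 had values only in set1htz1, of -0.84, -1.47 and -0.79 on arrays 1, 3 and 4, a mean of -1.03 ± 0.38 (SD, n = 3). Both lay within the range of the tested members that fell. MRPL40 was measured in set1, at -0.34, -0.10, -0.38 and -0.43, and was between -0.12 and 0 in H3K4A. MRPS5 was measured in H3K4A alone, at 0.16, -0.17, 0.15 and -0.08.

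Against set1 itself, set1htz1 had 13 members lower and 1 higher, where 19.3% of all genes were called, 10.3% lower and 9.03% higher. The median difference over the members was -0.275, against -0.02 over all genes, and 14 members (29.2%) were lower with no overlap between the arrays of the mutants, against 10.2% of all genes. The number called lower and higher together was 8 without set1htz1 array 2 and 7 without set1htz1 array 3. By subunit, 9 of 29 large-subunit and 4 of 19 small-subunit genes were lower.

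MRPL32 (YCR003W), the counterpart of bacterial L32 in the large subunit, gave -0.14, -0.18, 0.28 and -0.17 in set1 and -0.62, -0.89, -1.15 and -0.81 in set1htz1. The difference was -0.82 ± 0.16 (SE, limma adjusted p = 0.0019). MRPL9 (YGR220C), the counterpart of bacterial L3, gave -0.14, 0.34, -0.25 and 0.26 in set1 and -0.71, -0.62, -0.81 and -0.60 in set1htz1, a difference of -0.74 ± 0.11 (SE, limma adjusted p = 0.00022). For both genes the set1 mean was near wild type, with single arrays on both sides of 0, and all set1 arrays lay above those of set1htz1. In MRPL9 the set1 arrays were below 0 with the mutant in Cy5 and above it in Cy3.

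MRPL20 gave -0.45, -0.30, -0.60 and -0.67 in set1, already low, and was -0.79 ± 0.21 lower in set1htz1 (SE, limma adjusted p = 0.014). The member that was higher, MRPL44 (YMR225C), a mitochondria-specific large-subunit protein, gave -0.60, -0.18, -0.71 and -0.18 in set1 and -0.10, -0.03, 0.03 and -0.03 in set1htz1. Its difference of 0.38 ± 0.13 stood at the threshold (SE, limma adjusted p = 0.050), and the call was lost without the dye term, after quantile normalization, with robust eBayes, when only these groups were fitted, after removal of the length trend, without set1 array 1 or 3, and without any 1 set1htz1 array. MRPL44 was below wild type on every set1 array and near it in set1htz1.

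In set1htz1sir2 the members split, with 11 lower, 9 higher and 28 not called, where 50.4% of all genes were called, 26.3% lower and 24.1% higher. The median was -0.07, with quartiles of -0.3 and 0.15 and a range of -0.6 to 0.84, against -0.034 over all genes. On every measured array 17 members (35.4%) were below 0 and 10 (20.8%) above it, against 33.9% and 28.1% of all genes. The quartiles over all genes with a length were -0.29 and 0.26, so the upper quartile of the members was the lower of the 2. The large subunit had 7 genes higher and 6 lower (median -0.068), and the small subunit had 2 higher and 5 lower (median -0.108). The members called higher were fewer in other settings, with 2 higher and 10 lower after quantile normalization or without array 3, and 2 higher and 12 lower without array 1.

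The lowest was MRPL8 again, at -0.54, -0.79, -0.51 and -0.56, a change of -0.60 ± 0.12 (SE, limma adjusted p = 0.00049). RSM28 (YDR494W), a mitochondria-specific small-subunit protein, gave -0.27, -0.76, -0.42 and -0.40, a change of -0.46 ± 0.09 (SE, limma adjusted p = 0.00042). MRPS28 gave -0.49, -0.43, -0.45 and -0.47, a change of -0.46 ± 0.08 (SE, limma adjusted p = 0.00014). All arrays of these 3 genes were low, and those of MRPS28 differed by less than 0.1.

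RSM25 gave -0.18, -0.62, -0.56 and -0.42, a change of -0.44 ± 0.10 (SE, limma adjusted p = 0.0015). The other members that fell were MRPL27, MRPS17, MRPL17, RSM22, MRPL9, MRPL35 and MRPL44. MRPL24, which was not tested, averaged -0.50 ± 0.15 over its 3 measured set1htz1sir2 arrays (SD).

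The highest was RSM19 at 1.14, 0.54, 1.05 and 0.64, a change of 0.84 ± 0.17 or 1.79-fold (SE, limma adjusted p = 0.00042). MRPL19 (YNL185C), the counterpart of bacterial L11, gave 0.64, 0.38, 0.62 and 0.50, a change of 0.54 ± 0.10 (SE, limma adjusted p = 0.00017). RSM19 and MRPL19 were above wild type on all arrays, higher with the mutant in Cy5 than in Cy3.

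MRPL33 (YMR286W), the counterpart of bacterial L30, gave 0.63, 0.12 and 0.73 on arrays 1 to 3, a change of 0.50 ± 0.15 (SE, limma adjusted p = 0.010). MRPL51 (YPR100W), a mitochondria-specific large-subunit protein, gave 0.60, 0.45, 0.51 and 0.34, a change of 0.48 ± 0.15 (SE, limma adjusted p = 0.013). The calls of MRPL33 and MRPL51 were lost after quantile normalization, with limma adjusted p of 0.059 and 0.071, and without array 1 or array 3. The remaining members that rose were MRPL37 at 0.46, MRPL39 at 0.36, MRPL49 at 0.30, MRPS12 at 0.30 and MRPL4 at 0.30.

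Set against set1htz1, the triple mutant had 28 of 48 members higher and none lower (limma adjusted p under 0.05), where 12.7% of all genes were called, 7.27% higher and 5.4% lower. At an unadjusted limma p under 0.05 there were 40 members higher and 1 lower, beside 738 higher and 535 lower of the 4756 tested genes with a length. The median difference was 0.558, against 0.02 over all genes. On the arrays, 33 members (68.8%) were higher in set1htz1sir2 with no overlap, compared with 12.6% of all genes. Both subunits took part, with 16 of 29 large-subunit genes higher (median difference 0.515) and 12 of 19 small-subunit genes higher (median difference 0.565). This comparison and the one of set1htz1 with wild type use the same set1htz1 arrays, so their values are not independent of each other. The count was 18 without set1htz1 array 3 and 16 without set1htz1sir2 array 1.

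**Figure D3:**
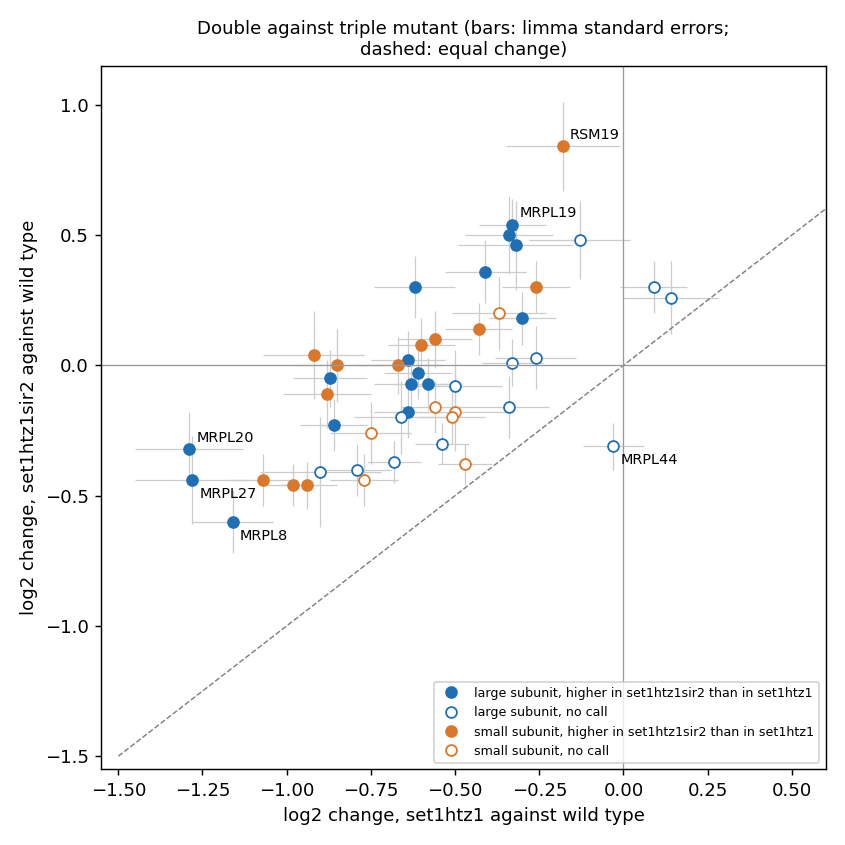
The fitted log2 change in set1htz1 (horizontal) against that in set1htz1sir2 (vertical), both relative to wild type, with 1 point per tested member, coloured by subunit and filled where the difference between the mutants was called. Grey bars are limma standard errors and the dashed line marks equal change. The horizontal values run from -1.29 to 0.14 and the vertical values from -0.6 to 0.84, and the points lie above the diagonal except MRPL44.

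RSM19 had the largest difference, from -0.14, -0.36, -0.54 and 0.32 in set1htz1 to the high values above in set1htz1sir2. It was 1.02 ± 0.24, or 2.03-fold (SE, limma adjusted p = 0.0085), and all its set1htz1sir2 arrays lay above all its set1htz1 arrays. MRPL20 gave 0.01, -0.47, -0.38 and -0.43 in set1htz1sir2, a difference of 0.98 ± 0.21 (SE, limma adjusted p = 0.0051). It remained below 0 on 3 of 4 arrays while lying above its set1htz1 values.

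RSM18 (YER050C), the counterpart of bacterial S18, gave -0.51, -1.09, -1.36 and -0.74 in set1htz1 and 0.23, 0.28 and -0.40 on set1htz1sir2 arrays 1, 3 and 4. The difference was 0.96 ± 0.23 (SE, limma adjusted p = 0.010), and the arrays of the mutants did not overlap. MRPL44 was the 1 member with a negative difference, of -0.28, and it gave -0.32, -0.45, -0.36 and -0.12 in set1htz1sir2.

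The medians of the large and small subunits differed by about as much as single arrays did. The large-subunit median minus the small-subunit median, array by array, was 0.175, -0.05, 0.045 and 0.005 in set1 and 0.22, 0.13, 0.10 and -0.02 in set1htz1. It was 0.19, -0.01, 0.0 and 0.01 in set1htz1sir2 and -0.016, 0.017, 0.065 and -0.075 in H3K4A. As means these are 0.04 ± 0.10, 0.11 ± 0.10, 0.05 ± 0.10 and 0.0 ± 0.06 (SD, n = 4), and in each mutant the 4 arrays fell on both sides of 0.

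Grouped by descent instead, 29 tested members have a bacterial counterpart and 19 were classed as specific to mitochondria. In set1htz1 the former had 26 lower (89.7%, median -0.582) and the latter 15 lower (78.9%, median -0.6), against 26.3% of all genes. In set1htz1sir2 the counterparts of bacterial proteins had 7 higher and 4 lower (median 0.0), and the mitochondria-specific proteins had 2 higher and 7 lower (median -0.262). Of the counterparts 21 (72.4%), and of the mitochondria-specific proteins 7 (36.8%), were higher in set1htz1sir2 than in set1htz1, against 7.27% of all genes. The median differences were 0.565 and 0.475. The classes were not matched for gene length, and the difference between them was not tested.

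Mitochondrial ribosomal protein genes are short, and the ratios of the triple mutant went with gene length over the whole array. Length here is the span from start to stop codon in the RefSeq annotation, introns included. The tested members had a median of 649.5 bp (213 to 1887 bp), with 552 bp in the large subunit and 744 bp in the small subunit, against 1257 bp over the 4756 tested genes with a length. In set1htz1sir2 Spearman's rho between length and fitted change was -0.472 over the 48 members and -0.33 over all genes. It was -0.33 in the large and -0.649 in the small subunit. The members share arrays and probes made in 1 way, so rho is given as a description.

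The relation held on each set1htz1sir2 array, with rho over the members of -0.445, -0.393, -0.471 and -0.401 and over all genes of -0.349, -0.269, -0.328 and -0.252. In the other mutants it had no steady sign over the members, at 0.246, -0.389, 0.403 and 0.102 in set1 and -0.299, -0.029, 0.064 and -0.181 in set1htz1. In H3K4A it swung from 0.675 on array 1 and -0.764 on array 2 to -0.197 and 0.089 on arrays 3 and 4. Over all genes rho on the H3K4A arrays was 0.348, -0.404, -0.455 and 0.182. Single H3K4A arrays thus carried a trend with length over all genes too, with changing sign. Over all genes rho lay between -0.095 and 0.156 on the set1 arrays and between -0.084 and 0.023 on the set1htz1 arrays. Over the fitted changes rho was 0.142 in set1, 0.129 in H3K4A and -0.127 in set1htz1.

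**Figure D4:**
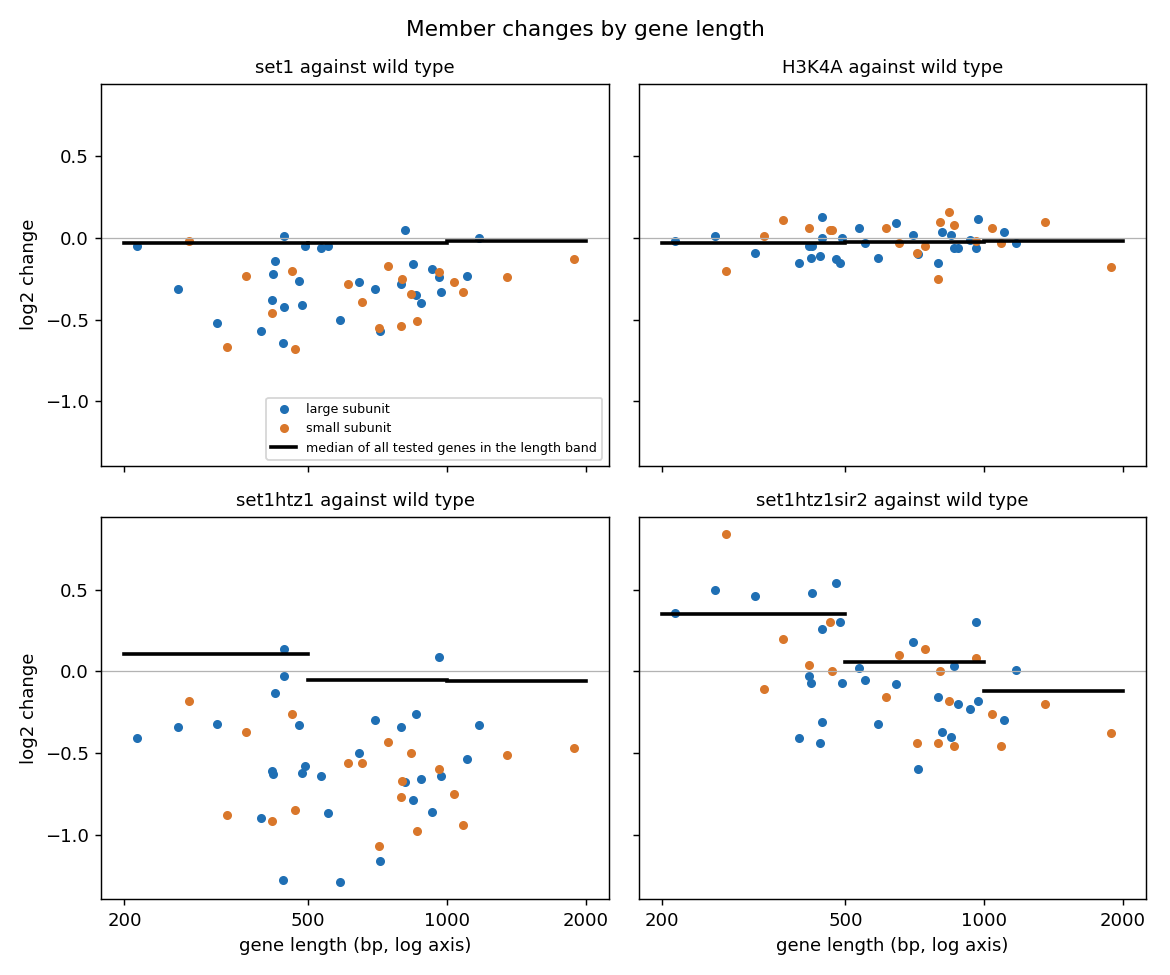
Gene length in bp (horizontal, log axis) against the fitted log2 change in each of the 4 mutants, with 1 point per tested member coloured by subunit, and black lines at the median of all tested genes in each length band. Short members lie higher than long ones in set1htz1sir2, where rho over the members is -0.472, and show little slope in set1htz1, where it is -0.127.

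Length bands show where the members stood apart from genes of their own size. Among genes under 500 bp, the 19 members had a set1htz1 median of -0.41, with 14 lower, while the 464 genes of that length had a median of 0.105. Between 500 and 1000 bp the 23 members had a median of -0.642, with 21 lower, against -0.054 over 1288 genes. Above 1000 bp all 6 members were lower, with a median of -0.526 against -0.06 over 3004 genes. Of all genes, 19.6%, 30.2% and 27.0% were lower in set1htz1, from the shortest band to the longest. The members lower in the shorter bands were 73.7% and 91.3%. In set1 the medians of the members were -0.31, -0.281 and -0.235 from the shortest band to the longest, and those of all genes were -0.031, -0.03 and -0.018. The members were thus below genes of like length in each band of both mutants.

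In set1htz1sir2 the members under 500 bp had a median of 0.2, with 8 higher and 2 lower, whereas all genes of that length had a median of 0.349, and 42.1% of the members were called higher against 53.9% of those genes. Between 500 and 1000 bp 1 member was higher and 6 were lower, with a median of -0.162 against 0.055. Above 1000 bp none of 6 was higher and 3 were lower, with a median of -0.28 against -0.122. Of the 9 members that rose in this mutant 8 were under 500 bp, the exception being MRPL4 at 960 bp, and RSM19, MRPL33 and MRPL39 measure 276, 261 and 213 bp. The members were therefore below genes of like length in this mutant too, and near wild type over the family as a whole.

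The difference between set1htz1sir2 and set1htz1 also went with length, with rho of -0.576 over the members and -0.413 over all genes. Its member medians were 0.765 under 500 bp, 0.48 from 500 to 1000 bp and 0.322 above 1000 bp, against 0.29 and 0.15 over all genes in the shorter bands and -0.052 in the longest. When the trend with length was removed from each array, a step added after seeing the data, set1htz1 had 42 members lower and set1 had 21 lower. Of all genes, 50.6% and 22.4% were then called in either direction. The triple mutant then had 3 members higher and 20 lower (median -0.232), and against set1htz1 it had 17 higher and 1 lower (median difference 0.38). Shares of all genes at this setting are not given for the triple mutant, so its counts are not read against them. MRPL33 went from a call of higher to -0.03 (limma adjusted p = 0.84).

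Other genes of mitochondrial translation and respiration, taken from lists chosen with earlier results of these arrays known, place these values. Mitochondrial ribosomal proteins with other names went the same way, with 8 of 20 (40%) lower in set1 (median -0.262), against 9.79% of all genes. None was called in H3K4A (median -0.045), against 4.2% of all genes. In set1htz1 13 (65%) were lower (median -0.445), against 26.3%. In set1htz1sir2 they had 6 higher (30%) and 3 lower (15%), with a median of 0.005, against 24.1% and 26.3% of all genes. Compared with set1htz1, 9 (45%) were higher there (median difference 0.478), against 7.27% of all genes. MRP13, a small-subunit protein, averaged -1.33 ± 0.37 in set1htz1 (SD, n = 4, limma adjusted p = 1.8e-07). MNP1, the counterpart of bacterial L7/L12, averaged -1.0 ± 0.38 (SD, n = 4, limma adjusted p = 3.4e-06).

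Nuclear genes of oxidative phosphorylation, whose products join those made by the mitochondrial ribosome, went the other way in set1htz1. Their array medians there were 0.75, 0.96, 0.85 and 0.62, on the same arrays where the ribosomal members were at -0.46, -0.57, -0.75 and -0.55. By limma 24 of 26 (92.3%) rose and none fell (median 0.852), where 21.2% of all genes rose. Their rise was as clear in set1htz1sir2, with 25 of 26 (96.2%) higher (median 1.358), against 24.1% of all genes. Of all genes under 500 bp 53.9% rose there (median 0.349), and the oxidative phosphorylation genes were not matched for length. In set1 5 (19.2%) rose and 1 (3.85%) fell (median 0.11), against 9.05% and 9.79% of all genes. In H3K4A 2 (7.69%) rose, against 3.59%. ATP16, the delta subunit of the ATP synthase, averaged 1.13 ± 0.05 in set1htz1, and QCR8 and QCR10, subunits of the cytochrome bc1 complex, averaged 1.13 ± 0.13 and 1.09 ± 0.17 (SD, n = 4).

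Cytosolic ribosomal protein genes did not share the fall of the mitochondrial ones. Of 116 tested, 9 (7.76%) rose and 2 (1.72%) fell in set1htz1 (median -0.002), against 21.2% and 26.3% of all genes. In set1 2 (1.72%) rose (median 0.074), against 9.05% of all genes. In set1htz1sir2 100 (86.2%) rose and none fell (median 0.61), where 24.1% of all genes rose. The cytosolic genes were not matched for length, and of all genes under 500 bp 53.9% rose in this mutant (median 0.349). Array medians of the cytosolic genes followed the dye in set1, at 0.30, -0.28, 0.425 and -0.27, where those of the mitochondrial members stayed below 0 on all arrays. The cytosolic medians followed the dye in set1htz1 as well, at 0.30, -0.25, 0.195 and -0.23. In set1htz1sir2 they were 1.01, 0.255, 1.05 and 0.26, again higher with the mutant in Cy5. The group medians above thus average unlike values of the 2 dye orientations.

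**Figure D5:**
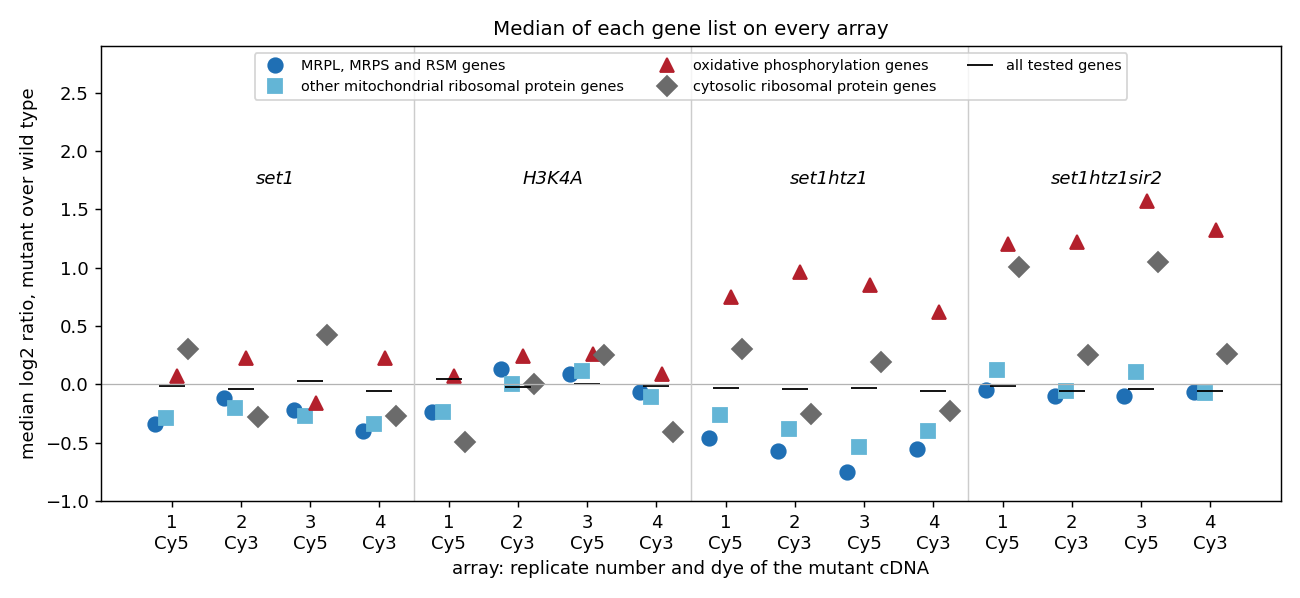
Median log2 ratio on each of the 16 arrays for the mitochondrial ribosomal protein members, mitochondrial ribosomal proteins with other names, nuclear oxidative phosphorylation genes and cytosolic ribosomal proteins, with a dash for all tested genes. On the set1htz1 arrays the members lie between -0.46 and -0.75 and the oxidative phosphorylation genes between 0.62 and 0.96.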

How the data were processed

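The deposited table holds log2 ratios of mutant over wild type, 1 column per array; spot quantitation by the authors used GenePix 3.0, poor spots (weak, or regression R2 under 0.75) were discarded, and ratios were scaled to each sample's total signal, per the deposited description. The sources used here give neither probe sequences nor a genome build. The table has 6282 entries, of which 296 carry a prefix z. The prefix was removed and entries of 1 open reading frame were averaged, giving 6074 genes, of which 5539 matched the RefSeq R64 gene table, used for names and lengths. Arrays were grouped by the mutant named in their labels.

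Genes measured on 3 or more of 4 arrays in each group were fitted in R 4.3.3 with limma 3.58.1 (lmFit, eBayes), with 1 mean per group and a shared dye term, and p-values were adjusted by Benjamini-Hochberg over all 5147 genes. Each gene had 1 spread shared by all groups, so an SE or p-value does not measure the spread within 1 group alone. Missing values were left missing. The code was tested on simulated data. The number of arrays limits the precision. The members, the other gene lists and the classing by descent were chosen with earlier results of these data known. Named members are up to 4 called genes with the largest rise and 4 with the largest fall per mutant (3 between mutants), or the 2 highest and 2 lowest where fewer than 2 were called, and up to 3 genes of each other list in set1htz1. Alternatives changed the normalization, dye term, filters, eBayes, samples fitted and arrays, with a replicate block and length-trend removal.

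Array numbers are shared by the groups. Same-numbered arrays deviated together from their group means with a correlation above 0.1 in 21 of 24 pairs (-0.0107 to 0.604). The dye goes with the number and was left in these deviations, so a dye effect and a pairing by number cannot be told apart. The main fit did not pair the arrays, and its comparisons between mutants take the groups as independent.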

Additional observations from a re-analysis of the deposited data

Results flagged for a closer look

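In groups of 4 arrays, single arrays lay far from the other 3 by Dixon's criterion in 6 of 82 groups of values examined, where chance gives about 1 in 20. In set1, RSM19 was 0.34 on array 2 against -0.15, -0.10 and -0.18 on the others, and MRPL32 was 0.28 on array 3 against -0.14, -0.18 and -0.17. MRPS17 was -0.27 on set1 array 3 against -0.69, -0.62 and -0.62, and MRPL19 was -0.51 on set1 array 4 against -0.20, -0.18 and -0.14. In H3K4A, RSM25 was -0.10 on array 2 against -0.28, -0.30 and -0.31. The large-subunit median minus the small-subunit median was 0.19 on set1htz1sir2 array 1 against -0.01, 0.0 and 0.01 on the others.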

How the results depend on the processing

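Of the 7 counts of members called, those of set1 and set1htz1 against wild type stayed within 1.5 times under every setting tried other than leaving out an array. Quantile normalization gave 1 member called in H3K4A, 12 in set1htz1sir2 (2 higher, 10 lower), 9 in set1htz1 against set1, 13 in set1htz1sir2 against set1htz1 and 4 in H3K4A against set1. The share of all genes called in H3K4A was then 15.3%, against 4.2% in the main fit. Fitting only the groups compared gave 9 in set1htz1 against set1 and 0 in H3K4A against set1, and the latter was 1 without a dye term and 7 with a dye term for each group. After removal of the length trend 18 were called in set1htz1sir2 against set1htz1 and 7 in H3K4A against set1. The member median of set1htz1sir2 was -0.04 after centring and -0.232 after removal of the length trend. That removal left the Spearman correlation with length at 0.151 in set1htz1 and 0.023 in set1htz1sir2, and turned MRPL33 in set1htz1sir2 to -0.03, by its construction. Leaving out 1 array at a time gave 8 to 19 members called in set1, 0 in H3K4A, 34 to 39 in set1htz1, 12 to 18 in set1htz1sir2, 7 to 16 in set1htz1 against set1, 16 to 28 in set1htz1sir2 against set1htz1 and 1 to 8 in H3K4A against set1. Member medians then ran from -0.294 to -0.266 in set1, -0.058 to 0.049 in H3K4A, -0.595 to -0.528 in set1htz1 and -0.122 to -0.033 in set1htz1sir2. Large minus small medians ran from -0.004 to 0.12, -0.071 to 0.025, 0.025 to 0.094 and -0.021 to 0.086 in that order. The Spearman correlation with length ran from -0.017 to 0.31, -0.529 to 0.4, -0.201 to -0.022 and -0.496 to -0.414. RSM19 in H3K4A ran from -0.4 to 0.05. With the replicate block in place of the dye term, the counts were 18 in set1, 0 in H3K4A, 39 in set1htz1, 19 in set1htz1sir2, 11, 25 and 2 in the comparisons between mutants, in the order above. The block ended the call of MRPL44 in set1htz1 against set1 (limma adjusted p = 0.068). Of 463 values for named members, 423 kept direction and side of the threshold, 37 lost the call, 1 gained it and 2 reversed. The cause of these shifts was not tested. Leaving out an array also leaves fewer arrays in the fit, which was not separated from the effect of the array left out. Missing values and weak spots limit single members more than the family.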

Other observations

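Other genes that serve mitochondria are given here beside the 26.3% of all tested genes called lower, and the 21.2% called higher, in set1htz1. Their difference from the ribosomal genes or from all genes was not tested. Of 16 translation factors 6 (37.5%) fell and 1 rose in set1htz1 (median -0.268), among them MRF1, the release factor, at -0.78 ± 0.12, MTG2, a GTPase of ribosome assembly, at -0.61 ± 0.27, and GUF1, a GTPase of the elongation factor family, at -0.55 ± 0.14 (SD, n = 4). MRF1 was nearly as low in set1htz1sir2, at -0.66 ± 0.08 (SD, n = 4). Of 14 mitochondrial tRNA synthetases 7 (50%) fell in set1htz1 (median -0.222), led by MSM1, the methionyl-tRNA synthetase, at -0.66 ± 0.13, with MSY1, the tyrosyl-tRNA synthetase, at -0.61 ± 0.28 (SD, n = 4). Of these lists 2 (12.5%) and 1 (7.14%) genes were higher in set1htz1sir2 than in set1htz1, against 7.27% of all genes. Of 21 genes of mitochondrial protein import 10 (47.6%) fell and 2 rose in set1htz1 (median -0.288). From set1htz1 to set1htz1sir2 7 (33.3%) were higher, against the same 7.27%. MGE1, the nucleotide exchange factor of the matrix Hsp70, averaged -0.76 ± 0.27 in set1htz1, and MAS1, a subunit of the presequence protease, averaged 0.90 ± 0.30 (SD, n = 4). MAS1 ran from -1.44 to 1.64 on the H3K4A arrays (SD 1.28, n = 4). Its SE in set1htz1 was 0.29 (limma adjusted p = 0.014).

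A mixed list held regulators of nuclear genes for mitochondria and genes that act on transcription or transcripts inside mitochondria, such as RPO41, MTF1 and PET127. Of its 13 tested genes 7 (53.8%) fell and 2 (15.4%) rose in set1htz1, beside 26.3% and 21.2% of all genes. SLS1, which links mitochondrial transcription to translation, averaged -0.59 ± 0.52 there (SD, n = 4). MTF2, which acts with it on mitochondrial transcripts, averaged -0.56 ± 0.05 (SD, n = 3). HAP4 and PUF3 were chosen after their values were seen. HAP4, the activating subunit of the HAP complex that drives respiratory genes, averaged -0.56 ± 0.18 in set1, 0.49 ± 0.09 in set1htz1 and 0.85 ± 0.27 in set1htz1sir2 (SD, n = 4). Its difference between set1htz1 and set1 was 1.05 ± 0.17 (SE, limma adjusted p = 0.00041). PUF3, an RNA-binding protein that targets messages for mitochondrial ribosomal proteins, averaged -0.44 ± 0.08 in set1 (SD, n = 4, limma adjusted p = 0.017). In set1htz1 PUF3 averaged 0.22 ± 0.35 (SD, n = 4, limma adjusted p = 0.15). Whether these regulators bear on the family was not tested.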
